A study of Mus musculus with 2 samples.

Results

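Neutrophils of the newborn mouse kidney were examined in single-cell RNA-seq of kidneys in which Six2-Cre, a recombinase expressed in nephron progenitors, acted on a floxed Flcn gene. A barcode was taken as a neutrophil when S100a8 and S100a9 together made up at least 50 of every 10000 of its UMIs (molecules counted by their barcode tag) and it held at least 1 UMI of Retnlg. Only barcodes that passed a filter for cells were considered (1000 UMIs and 500 genes or more, no more than 20% mitochondrial UMIs). The rule found 92 neutrophils among 9227 kept barcodes, 29 of 4187 in the library labelled Flcn WT and 63 of 5040 in the library labelled Flcn KO. The WT library came from Six2Cre; Flcn flox/+ kidneys and the KO library from Six2Cre; Flcn flox/flox kidneys, both at postnatal day 0, so both carried the Cre and at least 1 floxed allele. Each genotype had 1 library. The labels call the tissue embryonic kidney and do not state the number of animals pooled. Neutrophils descend from blood-forming cells and not from nephron progenitors, so they are not a lineage in which Six2-Cre is known to delete Flcn. With 1 library per genotype no test between genotypes was possible. Every interval is a 95% interval that covers counting error only, and PCR, the cells of 1 library and the animals behind it add variation that it does not hold.

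Neutrophils are short-lived phagocytes of the innate immune system that mature in the bone marrow, and before birth also in the fetal liver. Their granules are made in sequence. Azurophil granules with myeloperoxidase and elastase come first, specific granules with lactoferrin, cathelicidin and lipocalin follow, and gelatinase granules come last. Mature cells then stop making granule proteins, carry the receptors that guide them to tissue, and can produce cytokines such as interleukin 1 beta. S100A8 and S100A9 form calprotectin, the main cytosolic protein of the neutrophil, and Retnlg encodes a resistin-like protein of granulocytes. Folliculin, the product of Flcn, acts with FNIP1 and FNIP2 at the lysosome, where it keeps the transcription factors TFEB and TFE3 from switching on lysosomal genes.

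Promoters of 5 genes are shown because these transcripts mark the ends of the order described below. Camp, Ngp and Ltf were used to place the cells, Lcn2 is another specific-granule gene, and Il1b lies at the other end. Each is the 250 bases before the RefSeq start site on GRCm38.p6, which can differ from the GENCODE start used for gene positions, written 5′ to 3′ on the gene's strand. Capitals mark matches, on either strand, to TTGCNNAA, a motif of C/EBP factors, and to GAGGAA, the core bound by PU.1, both regulators of granulocyte genes. Camp lies at chr9:109849457-109849706 on the minus strand, Ngp at chr9:110419558-110419807 and Ltf at chr9:111019042-111019291 on the plus strand, and Lcn2 at chr2:32387740-32387989 and Il1b at chr2:129371140-129371389 on the minus strand.
Camp: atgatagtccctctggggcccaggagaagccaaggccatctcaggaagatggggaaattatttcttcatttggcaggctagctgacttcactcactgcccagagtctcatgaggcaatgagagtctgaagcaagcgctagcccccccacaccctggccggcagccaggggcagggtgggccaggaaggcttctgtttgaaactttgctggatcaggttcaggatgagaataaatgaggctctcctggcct
Ngp: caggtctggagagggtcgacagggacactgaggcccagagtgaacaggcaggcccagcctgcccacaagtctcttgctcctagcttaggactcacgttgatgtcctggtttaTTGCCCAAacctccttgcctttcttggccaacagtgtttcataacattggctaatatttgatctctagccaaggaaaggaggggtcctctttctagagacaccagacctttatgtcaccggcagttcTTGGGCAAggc
Ltf: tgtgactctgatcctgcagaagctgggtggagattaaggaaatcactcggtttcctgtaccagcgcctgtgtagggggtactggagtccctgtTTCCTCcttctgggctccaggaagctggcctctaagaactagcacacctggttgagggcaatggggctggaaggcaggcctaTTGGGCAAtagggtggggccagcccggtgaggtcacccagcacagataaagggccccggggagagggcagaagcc
Lcn2: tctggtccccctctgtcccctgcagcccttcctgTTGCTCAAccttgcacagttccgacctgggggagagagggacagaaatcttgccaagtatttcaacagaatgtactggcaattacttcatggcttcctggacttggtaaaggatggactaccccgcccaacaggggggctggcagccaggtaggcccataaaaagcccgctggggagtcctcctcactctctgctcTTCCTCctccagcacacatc
Il1b: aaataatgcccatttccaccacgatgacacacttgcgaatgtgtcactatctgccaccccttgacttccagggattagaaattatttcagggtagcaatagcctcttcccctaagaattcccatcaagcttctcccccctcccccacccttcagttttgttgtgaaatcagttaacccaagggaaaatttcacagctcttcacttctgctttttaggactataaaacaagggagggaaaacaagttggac
Ngp held 2 matches to the C/EBP letters, the nearer beginning 11 bases before the start site. Ltf and Lcn2 held 1 each, beginning 75 and 216 bases before it, and each also held 1 match to the PU.1 letters. Camp and Il1b held neither, and no match overlapped another. Among 32851 promoters of the same length, 9.56% held the C/EBP letters and 23.3% the PU.1 letters. A match is a description of the letters in this window and not a binding site.

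Neutrophils were a larger share of the KO library. They made up 0.693% of kept WT barcodes (exact interval 0.464 to 0.993%) and 1.25% of kept KO barcodes (0.962 to 1.60%), and these intervals overlapped at their ends. Macrophages, taken as other kept barcodes with at least 10 UMIs of C1qa, C1qb and C1qc per 10000, numbered 39 in WT and 88 in KO. Among neutrophils and macrophages together, neutrophils were 42.6% in WT (30.7 to 55.2%) and 41.7% in KO (33.8 to 50%), so the balance of these 2 phagocytes differed by less than its counting error. Shares depend on which cells survived dissociation and capture, which was not measured.

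The defining markers of neutrophils were present, and some markers of other leukocytes were found beside them. Stfa2, a stefin A protease inhibitor that is abundant in mouse neutrophils and was not part of the rule, had a UMI in 29 of 29 WT and 63 of 63 KO members, against 0.313% and 0.522% of the other kept barcodes. C1qa, C1qb, C1qc, Mrc1, Ms4a7, Trem2 and Cd163, which define tissue macrophages, had 0 UMIs over 28 WT and 61 KO members, after 3 members described next were set aside. Ccr2, the receptor of classical monocytes, was also at 0. The macrophage list held 41 WT and 125 KO UMIs in all, with 8 and 7 of 12 genes at 0 and Apoe, an apolipoprotein, at 30 and 81. The monocyte list held 93 and 160, with 5 and 4 of 8 genes at 0 and most UMIs in Ly6c2 (65 and 78) and Treml4 (27 and 64). A UMI of the monocyte list was found in 23 of 28 WT and 48 of 61 KO members, with medians of 3 and 2 UMIs, and a UMI of the macrophage list in 11 and 41. Their part in the results below was not tested. Mast cell and basophil markers were at 0 for 8 of 8 genes in each library. The 5 barcode sequences that the libraries shared included no member.

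Members held fewer UMIs than other cells. Their median was 5507 in WT (2846 to 42988) and 4381 in KO (1516 to 68172), against 21485 and 18984 in all other kept barcodes, a set that includes the macrophages. The largest barcodes stood apart. 3 members held at least 10 UMIs over the marker lists of kidney epithelium, stroma and endothelium, with 12 in WT and 125 and 298 in KO, while no other member held more than 5 in WT or 4 in KO. The WT barcode of 42988 UMIs had 39 UMIs of Epcam, an epithelial adhesion molecule, and 78 of Top2a, a mitotic topoisomerase. The KO barcode of 18735 UMIs had 43 of the collagen gene Col3a1, and the KO barcode of 68172 UMIs had 42 of Lrp2, the megalin receptor of proximal tubule. These 3 are called mixed barcodes here, a class chosen after their values were seen. They held 18.6% of WT and 23.3% of KO member UMIs. Results are given with and without them.

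Few barcodes lay near the S100 threshold, and more lay at the Retnlg one, where 6 KO members and 0 WT members held exactly 1 UMI. The lowest members had 131 and 133 S100a8 and S100a9 UMIs per 10000 in WT and 153 and 219 in KO. The highest barcodes with Retnlg below the threshold had 0 in WT and 36.3 in KO. A further 4 WT and 23 KO barcodes passed the S100 threshold with no Retnlg UMI, and they were of 2 kinds. In 2 WT and 14 KO barcodes Lyz2, a lysozyme of myeloid cells, had at least 50 UMIs, and F13a1, a coagulation factor of monocytes, had medians of 11 and 35.5. In the other 2 WT and 9 KO barcodes Lyz2 had at most 2 UMIs, F13a1 was at 0 and Il1b had medians of 54 and 30. Calprotectin transcripts were also found at low level elsewhere: among kept barcodes below the threshold, 3.92% in WT (3.35 to 4.56%) and 6.46% in KO (5.79 to 7.18%) had a UMI of S100a8 or S100a9, at 0.0211 and 0.128 UMIs per 10000. These UMIs numbered 297 in WT and 1861 in KO, and 4 WT and 12 KO barcodes held 10 or more each. Since 2 KO barcodes, of 93440 and 155781 UMIs, stood at 36 per 10000, the KO level was not spread evenly over barcodes. Whether these transcripts are free RNA was not tested.

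**Figure D1:**
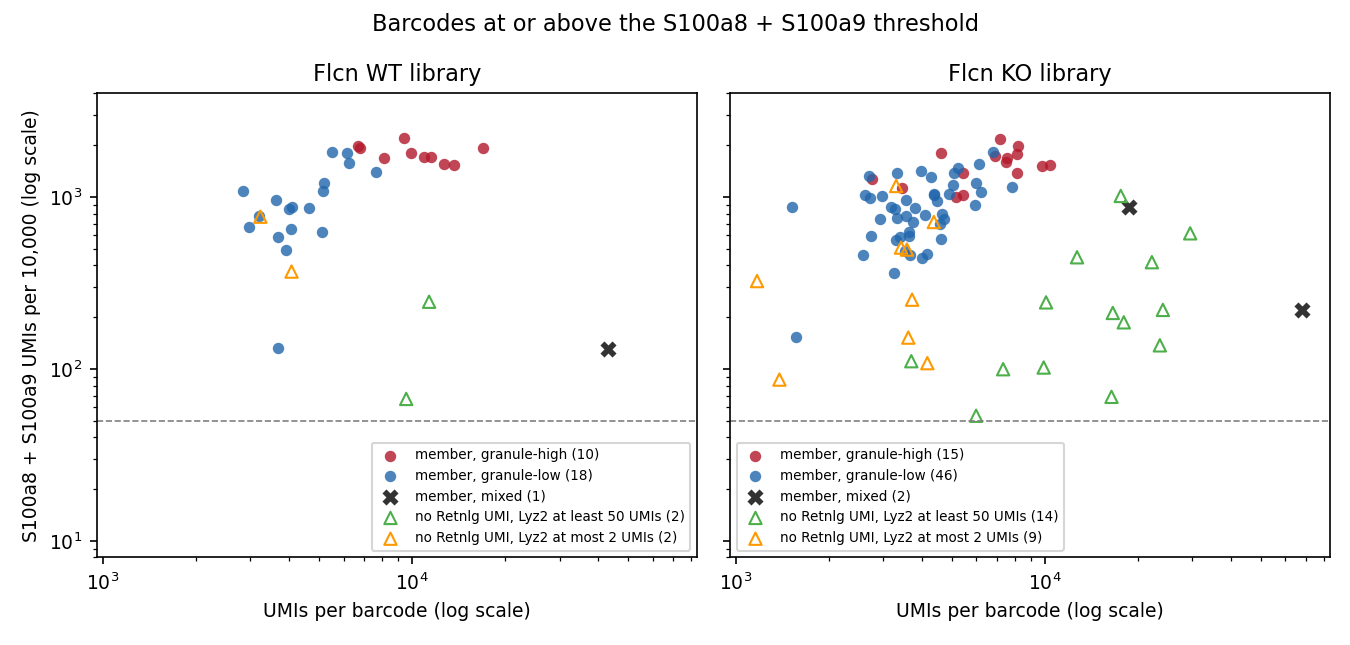
Each point is 1 kept barcode at or above the S100a8 and S100a9 threshold (dashed line, 50 per 10000), by its UMIs (x axis) and its S100a8 and S100a9 UMIs per 10000 (y axis), both on log scales, 1 panel per library. Filled circles and crosses are the 29 WT and 63 KO members, crosses mark the 3 mixed barcodes at 18735 to 68172 UMIs, and open triangles are the 4 WT and 23 KO barcodes without Retnlg.

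A few transcripts filled these cells. S100a9 made up 7.60% of nuclear-encoded UMIs in WT members and 6.37% in KO members, and S100a8 4.85% and 3.79%. Also among the 10 most abundant were Stfa1, Cstdc5 and Cstdc4 of the stefin A cluster, with 2.47%, 1.96% and 1.38% in WT and 1.72%, 1.40% and 1.26% in KO. Retnlg stood at 1.10% and 1.21%. The list of 10 also held Tmsb4x, which binds actin, and the nuclear RNA Malat1 in both libraries, Ngp in WT and Stfa2l1 in KO. The stefin A genes are closely related copies that lie together on chromosome 16, so reads may have been divided among them and the level of a single copy is uncertain. Against all other kept barcodes, the genes with the highest ratio of CPM (UMIs per 1000000 nuclear-encoded UMIs) were Retnlg, Cstdc5, Stfa2, Ltf, Cstdc6, Ngp, Camp, Mrgpra2b, Cd177, Stfa2l1, Cstdc4, Stfa3, S100a9, Asprv1, Wfdc21, Csta2, Csta3, Stfa1, Il1f9 and Olfm4, in that order by the smaller of the libraries' ratios. The ratio of Ltf, lactoferrin, was 14264 in WT and 5677 in KO, and that of Olfm4, a granule protein of a subset of neutrophils, was 3067 and 1290. Since the members were chosen from the same counts, these are descriptions.

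Within the neutrophils, cells were spread along an axis from specific-granule transcripts to Il1b. Camp, the cathelicidin precursor (chr9:109847379-109849617, minus strand, GRCm38), Ngp, neutrophilic granule protein (chr9:110419747-110423012, plus strand), and Ltf (chr9:111019271-111042767, plus strand) were used to place each cell. Members with at least 10 UMIs over the 3 genes are called granule-high and the rest granule-low, a division chosen after the values were seen. In WT, 10 of 28 members without the mixed barcode were granule-high (35.7%, 18.6 to 55.9%), and in KO 15 of 61 (24.6%, 14.5 to 37.3%). No WT member and 4 of 63 KO members lay between 5 and 19 UMIs, near the dividing value. The intervals of the libraries overlapped. After each member was thinned to 1000 UMIs, 34.5% of all WT members (17.9 to 54.3%) and 34.9% of all KO members (23.3 to 48.0%) held a UMI of the 3 genes, and 51.7% and 46.0% did so before thinning.

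At a thinned depth the 2 ends of the axis were seldom found in the same cell. After thinning, Il1b (chr2:129364570-129371139, minus strand), the interleukin 1 beta gene, had a UMI in 62.1% of WT and 61.9% of KO members, while 6.90% and 6.35% held both Il1b and a granule transcript and 10.3% and 9.52% held neither. Thinning drops low counts. Before it, 75.9% and 79.4% held an Il1b UMI and 51.7% and 46.0% a granule UMI, so more members held both. Across cells, Spearman's rho between the 3 granule genes and Il1b per 10000 UMIs was -0.66 in WT (28 cells) and -0.65 in KO (61 cells). Camp and Ltf went together, with rho of 0.99 and 0.86. These cells share a library and differ in depth, so the coefficients are descriptions. In macrophages Camp had 0 UMIs in 39 WT cells and a UMI in 2.27% of 88 KO cells, and in all other kept barcodes a UMI in 2.57% and 2.17%, at median depths of 14817, 14933, 21485 and 18984. Among neutrophils it was found in 34.5% and 36.5% at 5507 and 4381, so its share there stood above that of the cells that should lack it.

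**Figure D2:**
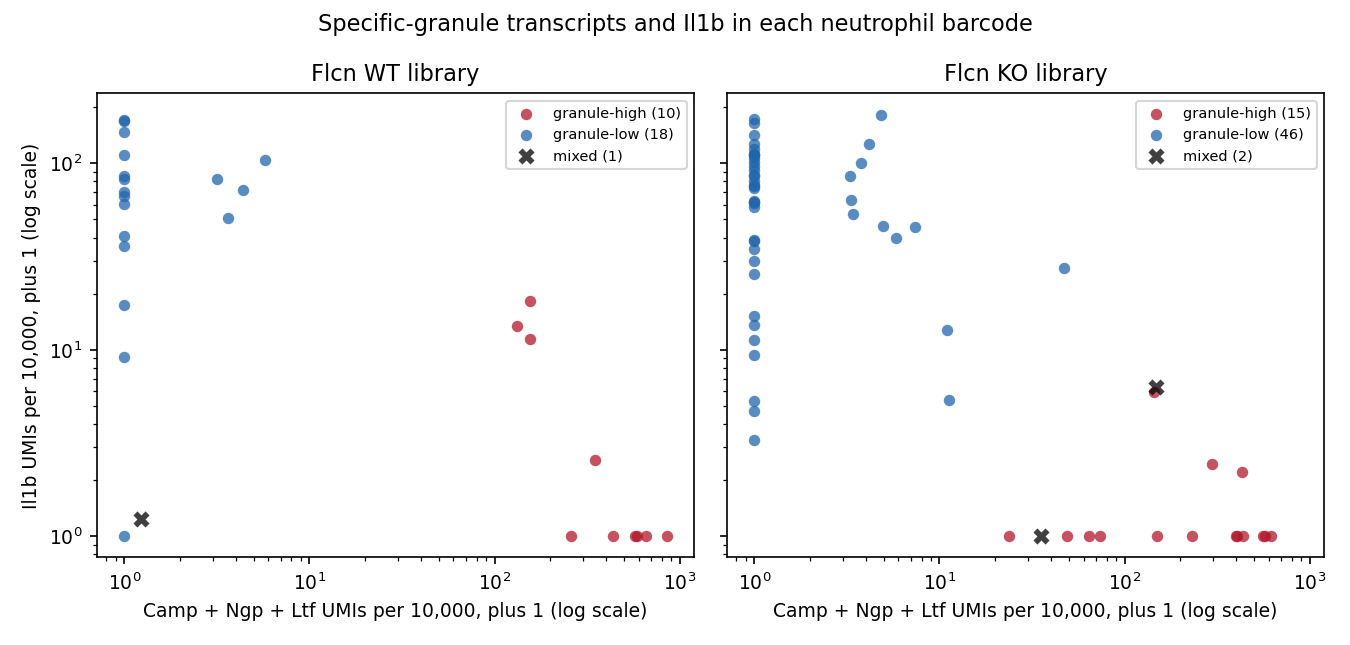
Each point is 1 neutrophil, by its Camp, Ngp and Ltf UMIs per 10000 plus 1 (x axis) and its Il1b UMIs per 10000 plus 1 (y axis), both on log scales, 1 panel per library. Granule-high cells (10 WT, 15 KO) lie toward the lower right, granule-low cells (18 WT, 46 KO) toward the left, and crosses mark the mixed barcodes. In KO the classes overlap on the x axis, where granule-low cells reach 46.2 per 10000 and granule-high cells begin at 22.6.

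Granule-low cells spanned a wide range of Il1b, from 0 to 169 UMIs per 10000 in WT (median 69.9) and from 2.28 to 181 in KO (median 62.3), while the highest granule-high cell held 17.3 and 4.91. Csf3r, the receptor of granulocyte colony-stimulating factor, had medians of 17.6 and 15.4 in granule-low and 1.48 and 1.33 in granule-high cells, and Lyz2 9.19 and 2.54 against 82.9 and 70.5. The ranges of Il1b in the 2 classes overlapped at low values in both libraries. The classes were divided at a number of UMIs not scaled to depth, which deeper cells reach more easily. Granule-high cells held more UMIs. Their median was 10429 UMIs in WT (6704 to 17021) and 7161 in KO (2753 to 10363), against 4061 (2846 to 7649) and 3783 (1516 to 7827) in granule-low cells. Their mitochondrial share had medians of 1.46% and 1.82%, against 2.38% and 2.33%. Over members without mixed barcodes the azurophil-granule list of 9 genes held 54 WT and 44 KO UMIs, with 5 and 4 genes at 0. Serpinb1a, an inhibitor of neutrophil proteases, had 50 and 34 of these, of which 47 and 34 lay in granule-high cells. Mpo, myeloperoxidase, had 0 and 1, Prtn3, proteinase 3, had 0 and 1, and Elane, neutrophil elastase, and Ctsg, cathepsin G, had 0 in each. At least 2 UMIs over 24 mitosis genes were found in 41.4% of WT and 34.9% of KO members, but after thinning in 1 of 29 and 1 of 63. Both were mixed barcodes, with 406 and 17 such UMIs before thinning.

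Granule-high cells were themselves ordered by Retnlg. The WT cell with most granule transcripts held 850 UMIs of Camp, Ngp and Ltf per 10000 with 4.11 of Retnlg and 0 of Mmp8, neutrophil collagenase. The WT cell with fewest held 131, with 253 of Retnlg and 28.4 of Mmp8. The KO cells followed the same order, from 614 granule UMIs with 1.84 of Retnlg and 0 of Mmp8 to 22.6 with 526 and 25.3. The KO cells at 614, 574 and 556 granule UMIs per 10000 each held 1 Retnlg UMI, the minimum of the rule. Their mitochondrial shares were 7.04%, 16.4% and 15.8%, against a median of 1.82% in KO granule-high cells. Over the granule-high cells rho between the granule genes and Retnlg was -0.93 in WT (10 cells) and -0.89 in KO (15 cells), and with Lcn2, the siderophore-binding lipocalin, it was 0.82 and 0.58. With Mmp8 rho was -0.66 and -0.46, and with the number of UMIs it was 0.49 and -0.09. Retnlg is part of the rule, which leaves out cells without it.

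Many genes followed the axis in both libraries. Of 1156 genes with at least 20 UMIs in the members of each library, 98 were higher and 261 lower in granule-high cells with both libraries' intervals on the same side of 1, and 6 had intervals on opposite sides. The cells were divided by 3 of these genes and the rest belong to the same cells, so no test applies. Toward the granule end stood Chil3, a chitinase-like secreted protein, with a granule-high over granule-low ratio of 26.6 in WT (13.3 to 62.2) and 22.7 in KO (14.0 to 39.0). Cybb, the catalytic subunit of the NADPH oxidase that makes superoxide, had 40.5 (13.6 to 198) and 29.9 (12.3 to 94.6). Cebpe, the transcription factor needed for specific granules, had 8.86 (3.24 to 33.9) and 8.70 (3.79 to 23.3). Lcn2 had 8.12 and 5.48, Lyz2 4.38 and 8.34, Cd177, a surface partner of proteinase 3, 9.62 and 14.4, and Anxa1, an annexin that limits inflammation, 4.65 and 4.12. Camp itself had 1835 UMIs in granule-high and 0 in granule-low WT cells.

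Toward the other end stood genes of activated and mature cells. Il1b was 20.1-fold higher in granule-low cells in WT and 104-fold in KO. Nlrp3, the inflammasome sensor that leads to interleukin 1 beta release, was 14.1-fold and 28.3-fold higher, Cxcl2, a chemokine that attracts neutrophils, 7.57-fold and 27.1-fold, and Csf3r 9.35-fold and 6.92-fold. Zeb2, a transcriptional repressor, was 30.1-fold and 22.8-fold higher, and Pim1, a kinase induced by cytokines, 22.2-fold and 11-fold. Nfkbia, the inhibitor of NF-kB that NF-kB itself induces, was 6.38-fold and 10.4-fold higher. Ptgs2, cyclooxygenase 2, had 44 UMIs in granule-low and 0 in granule-high WT cells, and 145 and 8 in KO cells.

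**Figure D3:**
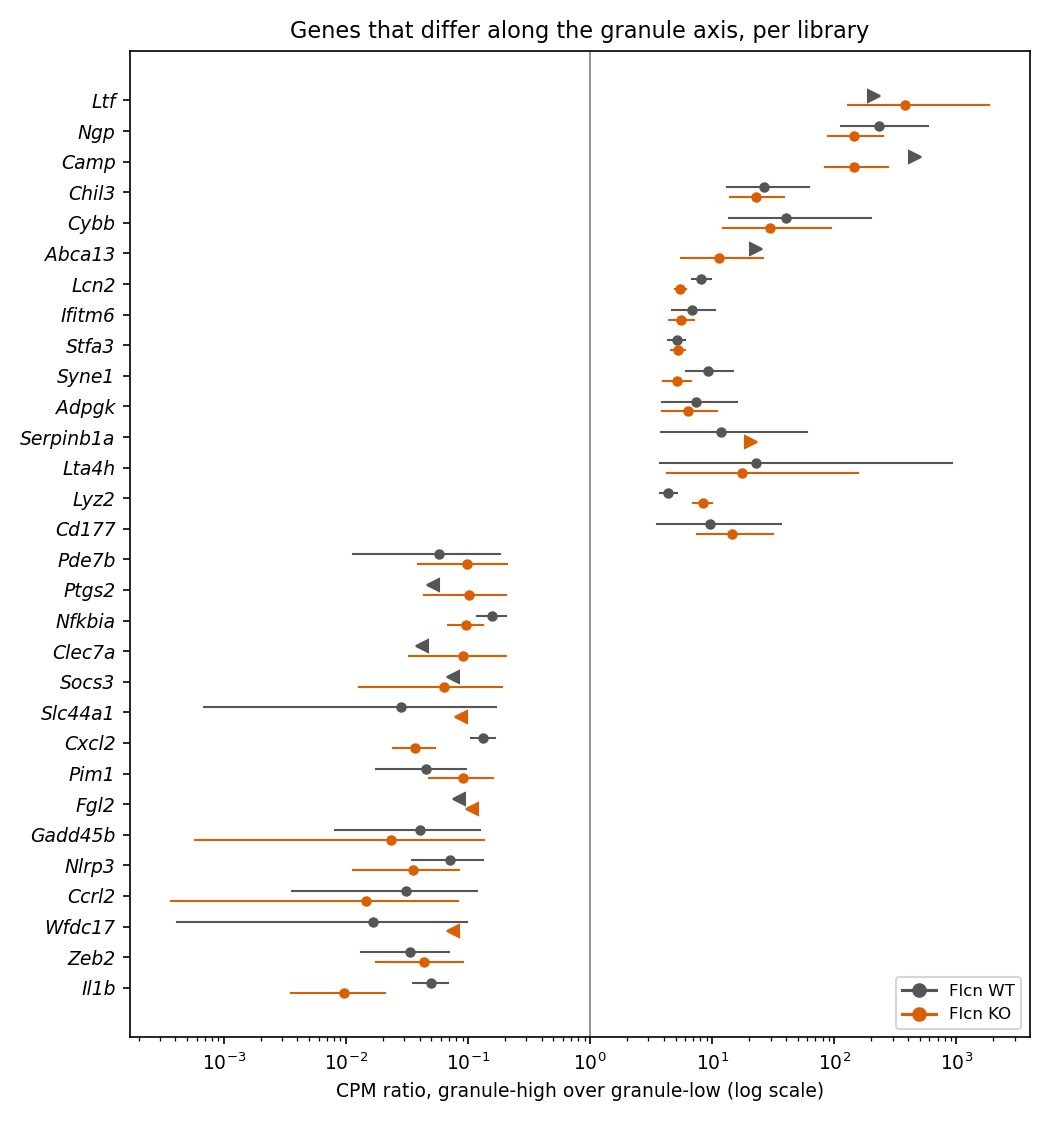
For 15 genes highest and 15 lowest in granule-high neutrophils, points give the ratio of CPM in granule-high over granule-low cells (x axis, log scale) in WT and KO, with 95% counting intervals as lines. Triangles are values with 3 UMIs set in place of 0 where 1 side had none. The genes were chosen among those with both libraries' intervals on the same side of 1, so that agreement follows from the choice. Camp, Ngp and Ltf divided the cells.

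Between the libraries, the comparison asks how neutrophils differ between Six2-Cre kidneys with both Flcn alleles floxed and Six2-Cre kidneys with 1. Over all members, 499 of 3997 genes with at least 20 UMIs were 2-fold or more above WT in KO (12.5%) and 273 were 2-fold or more below it (6.83%). Many of the extremes of that ranking came from the mixed barcodes, though not Zmpste24 or Supt3. Among the 12 highest genes were Gpx3, Sparc, S100a10, Ndrg1, Spp1, Fxyd2, Tmem252, Tmem176b, Rbpms, Pdzk1ip1 and Lgals1, genes of kidney tubule and stroma among them, and the mixed barcodes held between 83.3% (Lgals1) and 97.3% (Tmem176b) of their KO UMIs. Among the 12 lowest were the cell cycle genes Prc1, Mki67, Tubb5, Nasp, Hist1h2ap and H4c4, with 70.0% to 93.4% of WT UMIs in the WT mixed barcode. The other 6 lowest were Mecom, Erbb4, Supt3, H1f0, Zmpste24 and Hipk2. The mixed barcode held 94.4% and 98.6% of the WT UMIs of Mecom and Erbb4, 57.4% of Hipk2, 23.8% of Supt3 and 4.76% of Zmpste24, and 11 of the 22 of H1f0. Without the mixed barcodes 226 of 2819 genes stood 2-fold or more above WT (8.02%) and 112 as far below it (3.97%), and within granule-low cells 157 of 1817 (8.64%) and 78 (4.29%). In macrophages the shares were 4.63% and 4.06%, and in all other kept barcodes 3.96% and 3.5%.

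Without them, Zmpste24 ranked first among the genes lower in KO, followed by Camp and Ngp, and Ltf was also among the 12. Camp had 1835 UMIs in WT and 1034 in KO, a CPM ratio of 0.373 (0.346 to 0.403), Ngp had 2181 and 1261 (0.383, 0.357 to 0.411), and Ltf had 836 and 619 (0.490, 0.441 to 0.545). Cybb had 164 and 86 (0.347, 0.264 to 0.454) and Lyz2 1177 and 872 (0.491, 0.449 to 0.536). These are the genes that mark granule-high cells, which held 57.0% of the WT and 35.1% of the KO UMIs of the members without mixed barcodes. Within granule-high cells alone the ratio was 0.598 for Camp (0.553 to 0.646), 0.615 for Ngp, 0.792 for Ltf (0.712 to 0.880), 0.541 for Cybb and 1.0 for Lcn2 (0.928 to 1.08). A single WT cell held 671 of the 1835 Camp UMIs. The direction of these 5 genes turned when doublet scores were used: removing barcodes with the highest Scrublet scores took 12 of 29 WT and 2 of 63 KO members, 9 of the 10 granule-high WT cells but 0 of 15 in KO, and the log2 ratio of KO over WT was then 2.57 for Camp, 1.85 for Ngp, 2.23 for Ltf, 1.92 for Cybb and 0.41 for Lyz2. In granule-low cells, where these genes are nearly silent, Camp had 0 and 13 UMIs, Ltf 0 and 3, and Ngp 7 and 16. The granule difference between the libraries rests on 10 granule-high WT cells.

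Other genes lower in KO had few UMIs or few cells. Zmpste24, the protease that matures lamin A, had 40 and 5 UMIs (ratio 0.0828, 0.0255 to 0.210) with 18 of the WT UMIs in 1 cell. After removal of the highest doublet scores the log2 ratio was 0.061 for Zmpste24 and 0.062 for Me2. Marchf1, a ubiquitin ligase of immune cells, had 68 and 34 (0.331), Sap30, a subunit of a histone deacetylase complex, 18 and 5 (0.184), Me2, mitochondrial malic enzyme, 17 and 5 (0.195), Chd1, a chromatin remodeller, 29 and 12 (0.274), and Taf13, a subunit of the general factor TFIID, 25 and 10 (0.265). S100g, a calcium-binding protein of tubule epithelium, had 31 and 10 UMIs (0.214, 0.0935 to 0.447). It was also at 0.179 in all other kept barcodes, where it had 77042 and 14184 UMIs. Whether free RNA set its level in neutrophils was not tested.

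The genes highest in KO without the mixed barcodes stood at few UMIs in WT. Cxcl3, a chemokine that acts on CXCR2, had 4 UMIs in 3 WT cells and 43 in 14 KO cells (ratio 7.12, 2.59 to 27.3), all but 2 of them, both WT, in granule-low cells. Ifitm1, an interferon-inducible membrane protein, had 33 and 148 (2.97, 2.03 to 4.47), and Man2a1, a mannosidase of the Golgi, 24 and 112 (3.09, 1.98 to 5.03). Both were also higher within granule-low cells, at 2.36 (1.56 to 3.70) and 2.91 (1.54 to 6.09). In all other kept barcodes these 2 genes were at 1.87 and 1.33, and in macrophages at 1.22 (0.631 to 2.50) and 2.05 (1.70 to 2.49). Tlr8, a sensor of single-stranded RNA, had 1 UMI in WT and 25 in KO (16.6, 2.71 to 680), Bnip3, a mitophagy receptor induced by hypoxia, 2 and 28, Tbc1d15, a Rab GTPase-activating protein, 8 and 52, Nek6, a mitotic kinase, 2 and 25, and Slc24a3, a sodium, calcium and potassium exchanger, 4 and 51. Single KO cells held 17 of the 28 Bnip3 UMIs, 13 of the 43 of Cxcl3 and 13 of the 51 of Slc24a3. Fam169b (1 and 27), Mpzl3 (1 and 27) and Ccdc80 (1 and 21) complete the 12. Mt1, a metallothionein that binds zinc and copper, had 1 and 35 UMIs (23.2, 3.90 to 942). It was also 3.46-fold higher in all other kept barcodes, and 28 of its 63 UMIs over all KO members lay in 1 mixed barcode.

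**Figure D4:**
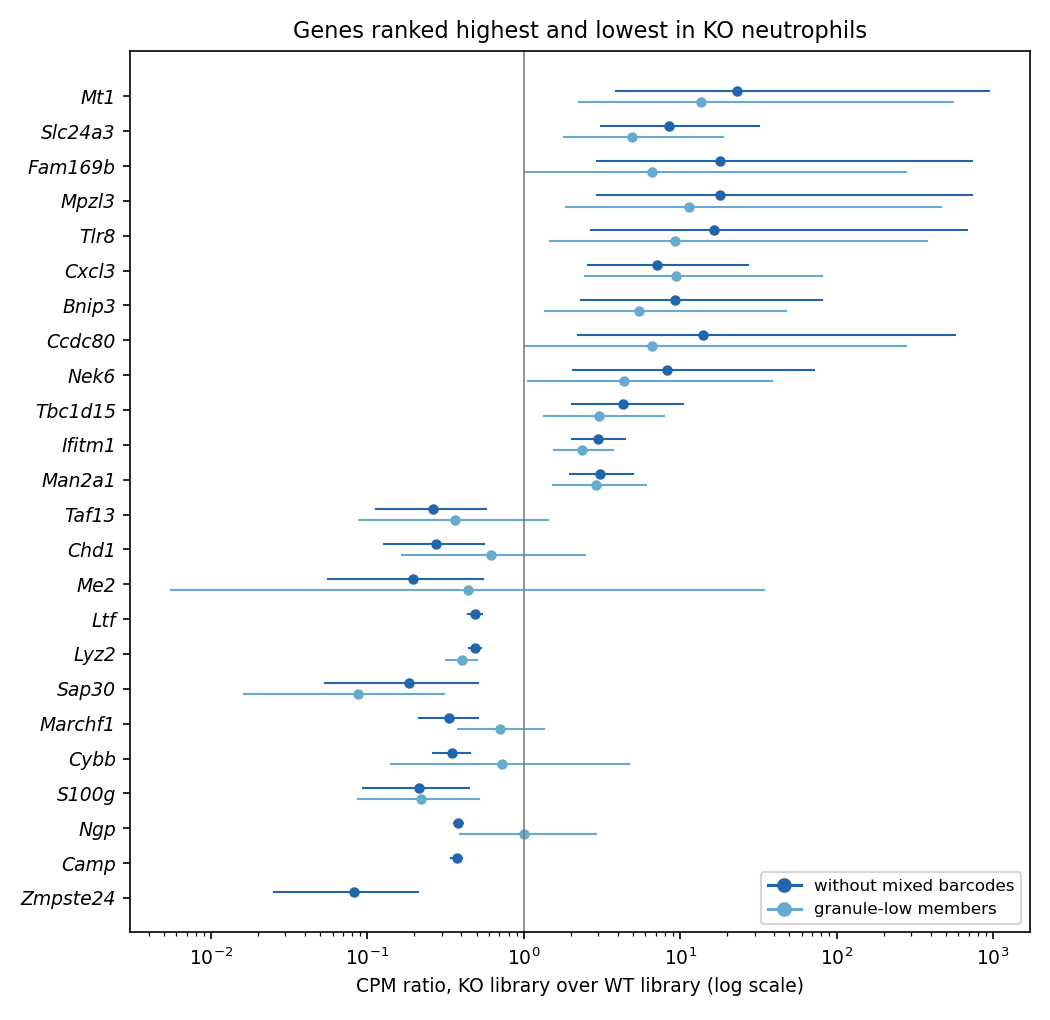
CPM ratios of the KO over the WT library (x axis, log scale) with 95% counting intervals for the 12 genes ranked highest and the 12 ranked lowest in KO neutrophils without mixed barcodes, in all such members and in granule-low members. Camp, Ltf and Zmpste24 have no granule-low value because 1 library had 0 UMIs there. The 12 genes ranked highest all stay above 1 in both, while Ngp moves to 1.0.

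Gene lists are described by role, each with the median log2 ratio of its members that had at least 10 UMIs, beside 0.10 for all 4265 such genes without the mixed barcodes, of which 56.2% were higher in KO, 417 by 2-fold or more, and 288 were 2-fold or more lower. In the specific-granule list 9 of 11 genes were lower in KO and 4 at least 2-fold, with a median of -0.76. Fcnb, ficolin B of immature cells, had 20 and 4 UMIs (15 of the 20 in 1 cell), Chil3 was at 0.546 (0.458 to 0.650), and Hp, haptoglobin, went the other way at 1.42 (1.25 to 1.62). Within granule-low cells the median of the list was 0.21 over 8 genes. The gelatinase-granule list had a median of -0.07 over 11 genes, with Mmp8 at 1.43 (1.26 to 1.63) and Mmp9, gelatinase B, at 0.893 (0.741 to 1.08). Mmp8 was higher in KO within granule-high cells (1.55, 1.31 to 1.83) and within granule-low cells (1.73, 1.38 to 2.18) alike. The NADPH oxidase list had a median of -0.09 over 7 genes, and apart from Cybb its members ranged from 0.693 for Ncf4 to 1.44 for Rac1. Of 9 stefin A genes 8 were lower, none 2-fold, with a median of -0.20.

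Lists of mature and activated cells were read over all stages and within each. Of 24 mature-neutrophil genes 18 were higher, 2 at least 2-fold, with a median of 0.30. Il1r2, a decoy receptor for interleukin 1, had 155 UMIs in WT and 476 in KO (2.03, 1.69 to 2.45), and Cxcr2, the receptor for CXC chemokines, 118 and 229 (1.29, 1.03 to 1.62). Of 15 cytokine genes 13 were higher, 4 at least 2-fold, with a median of 0.63. Il1b had 630 and 1158 UMIs (1.22, 1.10 to 1.34), Cxcl2 617 and 1428 (1.53, 1.39 to 1.69), Ptgs2 44 and 153 (2.30, 1.64 to 3.30), and Ccl4, a chemokine for several leukocytes, 8 and 43 (3.56, 1.66 to 8.77), 22 of the latter in 1 cell. Tgfb1 went the other way, with 12 and 6. Of 25 receptors 19 were higher, 1 at least 2-fold, with a median of 0.36. Within granule-low cells the medians were 0.11, 0.23 and 0.20 for the 3 lists, beside 0.03 for all 3084 genes, and Il1b was at 0.856 (0.774 to 0.947) and Nlrp3 at 0.979 (0.785 to 1.23), while Cxcl2 was at 1.17 (1.06 to 1.30) and Il1r2 at 1.52. In granule-high cells the cytokine list held 199 UMIs in WT and 100 in KO, a ratio of summed CPM of 0.540 (0.420 to 0.690). After removal of the highest doublet scores the 3 medians over all members turned to -0.16, -0.0936 and -0.16, and the log2 ratios of Cxcl2 and Il1b to -0.37 and -0.83. With the S100 threshold at 25 per 10000 these 2 genes were at -0.17 and -0.48.

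Regulators and responses differed from list to list and between stages. Of 11 measured granulopoiesis factors 10 were higher, with a median of 0.38. Klf2, a factor that holds leukocytes quiescent, had 143 and 459 UMIs (2.13, 1.76 to 2.58), and Cebpe 51 and 40 (0.520, 0.335 to 0.802). In granule-low cells the list's median was 0.05, and Klf2 was at 1.65. Of 9 survival genes 8 were higher, with a median of 0.60, Bcl2l1, which codes for the anti-apoptotic BCL-XL, at 2.16 (1.34 to 3.61) and Mcl1, on which neutrophil survival depends, at 1.51 (1.30 to 1.76). In granule-low cells the survival median was 0.24 over 8 genes, of which 6 were higher. The ratio of summed CPM of the survival list was 1.14 there (0.994 to 1.31) and 1.67 in granule-high cells (1.29 to 2.17). The interferon list had a median of 0.44 over 8 genes and -0.01 in granule-low cells, and the immediate-early list 0.26 over 16 genes in each. NF-kB response genes had a median of 0.32 over 16 genes and -0.01 in granule-low cells, and in granule-high cells their summed CPM was lower in KO (ratio 0.732, 0.604 to 0.885). Cd274, the checkpoint ligand PD-L1, had 23 and 11 UMIs (0.317, 0.139 to 0.677).

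**Figure D5:**
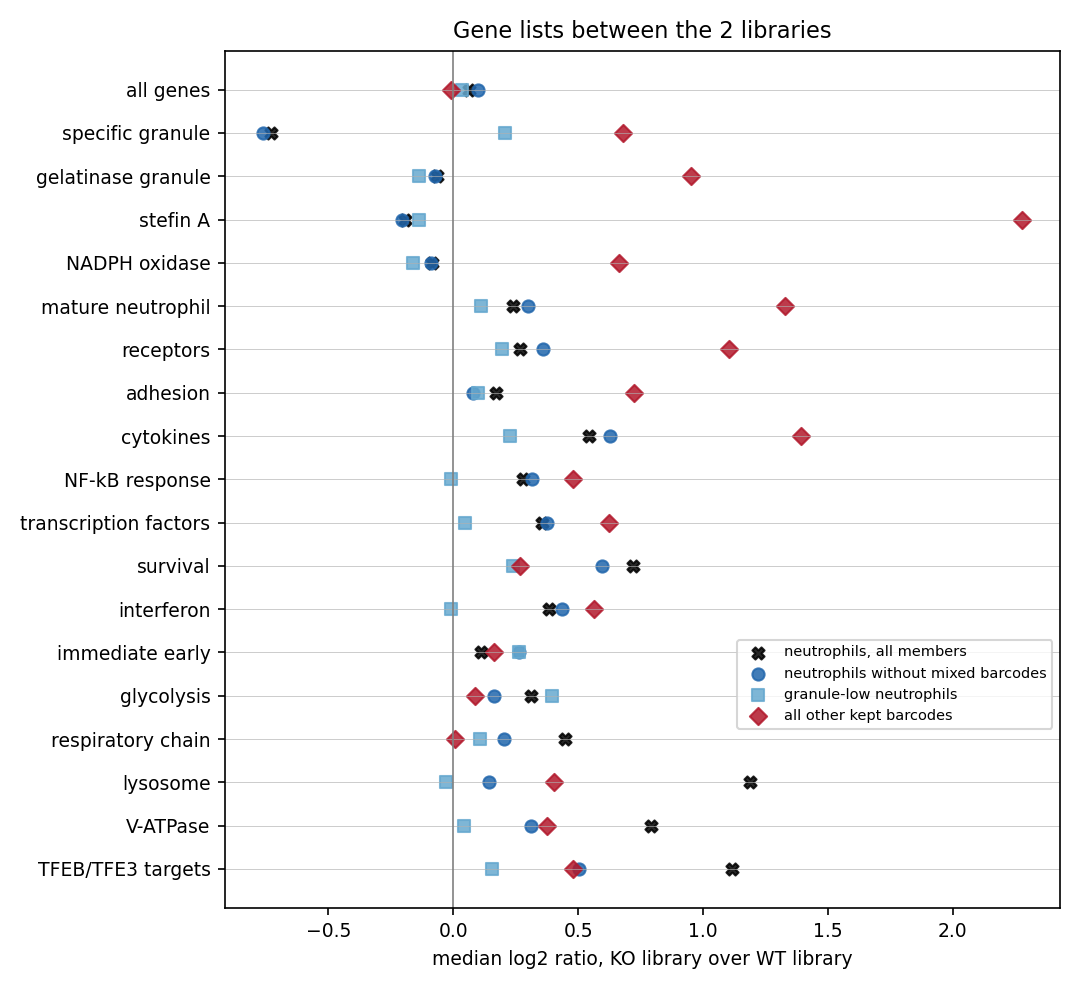
Median log2 ratio of the KO over the WT library (x axis) for gene lists (y axis) in all neutrophils, neutrophils without mixed barcodes, granule-low neutrophils and all other kept barcodes, over genes with at least 10 UMIs in that set. The lysosome list lies at 1.19 with the mixed barcodes and at 0.14 and -0.03 without them and in granule-low cells.

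Lysosomal genes, the targets that folliculin restrains through TFEB and TFE3, had higher medians with the mixed barcodes than without them. Over all members, where 53.2% of 6200 genes were higher in KO, the lysosome list had a median of 1.19 with 25 of 29 genes higher, the list of TFEB and TFE3 targets 1.12 with 10 of 12 higher, and the V-ATPase list, subunits of the pump that acidifies the lysosome, 0.79 with 13 of 15 higher. Without the mixed barcodes the medians were 0.14 (16 of 25 genes higher, 2 at least 2-fold), 0.51 (7 of 9) and 0.31 (11 of 15). In granule-low cells they were -0.03 over 20 genes, 0.15 over 6 and 0.04 over 14. In all other kept barcodes the same lists stood at 0.40, 0.48 and 0.37, and in macrophages at -0.14, -0.12 and -0.01. The summed CPM of the lysosome list was 2180 in WT and 2737 in KO neutrophils without mixed barcodes (ratio 1.26, 1.11 to 1.42), and 2901 and 2979 in granule-low cells (1.03, 0.878 to 1.20). In granule-high cells the ratio of summed CPM was 1.40 for the lysosome list (1.14 to 1.72), 1.53 for the TFEB and TFE3 targets (1.08 to 2.18) and 1.37 for the V-ATPase list (1.13 to 1.66). Lists of other roles also stood above 1 there, with 1.89 for interferon genes, 1.67 for survival genes and 1.40 for granulopoiesis factors. Others stood below it, with 0.749 for specific-granule genes, 0.829 for stefin A genes and 0.540 for cytokines. No median over all genes was made for granule-high cells. Single members of the lysosomal lists, over granule-high and granule-low cells together, went both ways. Ctsd, cathepsin D, had 41 and 107 UMIs (1.73, 1.20 to 2.54), Lamp2, a lysosomal membrane protein, 39 and 100 (1.70, 1.16 to 2.53), and Psap, prosaposin, 23 and 62 (1.79, 1.09 to 3.02), while Sqstm1, the autophagy adaptor p62, had 38 and 45 (0.784, 0.498 to 1.24) and Grn, progranulin, 20 and 15 (0.497).

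Flcn and its partners were near the limit of detection. Without the mixed barcodes Flcn (chr11:59791408-59810016, minus strand) had 0 UMIs in 28 WT and 6 in 61 KO neutrophils. Counts from the 3′ end of transcripts do not check whether an exon was deleted. Fnip1 had 27 and 49 UMIs (1.20, 0.737 to 2.0) and Fnip2 3 and 5. Tfeb had 6 and 9 (0.994, 0.316 to 3.39), Tfe3 7 and 13 (1.23, 0.456 to 3.64) and Mitf 9 and 15 (1.10, 0.453 to 2.86), and Tfec was at 0 in each. In macrophages Mitf had 151 and 163 UMIs (0.475, 0.378 to 0.597). At these counts a difference of 2-fold in Tfeb or Tfe3 was not detectable.

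Glycolytic genes, on which neutrophils rely for energy, had a median of 0.16 over 17 genes and 0.40 over 15 in granule-low cells, where 13 were higher and none 2-fold. Of all 3084 genes in granule-low cells 51.3% were higher, 342 by 2-fold or more. Slc2a3, a glucose transporter, had 54 and 128 UMIs (1.57, 1.13 to 2.2), and Hk1, hexokinase 1, 11 and 3. The respiratory chain list had a median of 0.20 over 25 genes, 0.45 with the mixed barcodes.

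Attractants of neutrophils were measured in all other kept barcodes, a set that includes the macrophages and the 4 WT and 23 KO barcodes above the S100 threshold without Retnlg. Of 13 attractant genes with at least 10 UMIs, 10 were higher in KO, 7 at least 2-fold, and 3 lower, 1 at least 2-fold, with a median log2 ratio of 1.14. Of all 28579 genes with that minimum in these barcodes 48.9% were higher in KO, with a median of -0.008. Among them 1428 were 2-fold or more higher and 1243 as far lower. Cxcl1 had 1611 UMIs in WT and 2995 in KO (ratio 1.80, 1.70 to 1.92), Cxcl2 1057 and 3457 (3.17, 2.96 to 3.40), Il6 87 and 222 (2.47, 1.92 to 3.21) and the complement gene C3 283 and 1041 (3.57, 3.13 to 4.08). The 39 WT and 88 KO macrophages held 615 and 2225 of the Cxcl2 UMIs, and within them its ratio was 1.59 (1.46 to 1.74). Csf3, the cytokine that drives neutrophil production, had 60 and 44 (0.711, 0.471 to 1.07), and Cxcl12, which retains neutrophils in the marrow, was at 1.22 (1.20 to 1.25). Neutrophils themselves held 0 and 2 UMIs of Cxcl1. The attractant list also holds Lcn2, a specific-granule gene. In macrophages 6 of the list's 7 measured genes were higher in KO, with a median of 0.67 (-0.36 to 2.44), beside -0.06 for all genes.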

How the data were processed

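Single-cell RNA-seq of 2 libraries, 1 per genotype, was used. Per the labels, droplets and a 3′ kit of 10x Genomics were used. Cell Ranger 7.0.0 made the WT matrix and 7.1.0 the KO matrix, per the file headers, so version, library and genotype cannot be told apart. The submitters' processing notes also list STAR 2.7.2a, bcl2fastq 2.20.0 and the GRCm38 build. The deposited matrices hold raw UMI counts per gene and barcode with no barcode under 500 UMIs. Whether intronic reads were counted is not given in the sources used here. The WT library held 5572 barcodes and 147390790 UMIs, the KO library 5991 and 149679281. Of 55488 gene rows 55227 matched GENCODE M21, which gave positions.

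Each gene's UMIs were summed over the members of a library and divided by their nuclear-encoded total (CPM). The KO value was divided by the WT value, with an exact conditional 95% interval. Shares have Clopper-Pearson 95% intervals. Log2 ratios for lists had 0.5 UMI added. With 1 library per group, no p-value was made. Named genes were the 12 highest and 12 lowest by the interval bound nearest to 1, with at least 20 UMIs over both libraries and 5 cells in the higher one; the 20 highest against other barcodes with at least 50 UMIs and 25% of members; the 10 most abundant; S100a8, S100a9, Retnlg, Stfa2 and the Flcn and MiT genes; and members of lists with at least 10 UMIs. Unnamed models, ribosomal, haemoglobin, mitochondrial, Xist and Y-linked genes were left out, and some genes that the rule names are not reported here. S100a8 had a ratio of 0.765 and S100a9 of 0.829 without mixed barcodes. The members, lists and rules were chosen with earlier results of these data known. Mixed barcodes and granule classes were chosen after seeing the data, and gene values are given without mixed barcodes unless stated.

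No doublet was removed in the values given first. Scrublet's own threshold called 3 WT and 2 KO barcodes, 0.0717% and 0.0397%, so as an alternative the expected share of highest scores, 187 and 242 barcodes, was removed. Other alternatives varied the cell filter, the rule's thresholds, scaling (TMM, edgeR 4.0.16; median of ratios, DESeq2 1.42.0), averaging per cell, thinning and minimum UMIs. The interval calculation was tested on simulated data. Python 3.11.15, numpy 2.4.6, scipy 1.17.1, pandas 2.3.3, scanpy 1.11.5 and R 4.3.3 were used.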

Additional observations from a re-analysis of the deposited data

Results flagged for a closer look

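Barcodes outside the cell filter were used in no comparison. Among them 1 of 1385 WT barcodes (0.0722%, exact interval 0.00183 to 0.402%) and 4 of 951 KO barcodes (0.421%, 0.115 to 1.07%) met the conditions on S100a8, S100a9 and Retnlg, a larger share in KO than in the WT library. The WT barcode held 7405 UMIs and the KO barcodes held 806 to 4696. The share had no replicate check. No group had 4 or more libraries, so no library could be compared with its group.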

How the results depend on the processing

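No paired analysis was possible because each genotype had 1 library, and for the same reason no replicate could be left out. Of 67 genes followed through all alternatives, 37 kept their direction or lay within their interval of no difference, and 30 turned under at least 1. Values below are log2 ratios of KO over WT unless they are counts or percentages, and the cause was not tested. Between 707 and 14720 genes were tested, so each count is given with its share of the genes tested. The number 2-fold or more higher was 499 over all members (12.5%) and 180 with the minimum UMIs doubled (8.01%). It was 4513 with no minimum beyond 1 (30.7%), 1851 with the S100 threshold at 25 (29.8%) and 818 without the Retnlg condition (15.03%). After removal by doublet score it was 255 (10.8%), after thinning 63 (8.91%) and without the deepest 10% of members 206 (8.28%). Without mixed barcodes it was 226 (8.02%) and in granule-low cells 157 (8.64%). The number lower was 273 over all members (6.83%), 92 with the minimum doubled (4.1%) and 3230 with no minimum beyond 1 (21.9%). It was 128 after doublet removal (5.4%), 23 after thinning (3.25%) and 92 without the deepest 10% of members (3.7%). Without mixed barcodes it was 112 (3.97%) and in granule-low cells 78 (4.29%). The specific-granule median of -0.73 was -1.42 at the threshold of 25, 1.34 after doublet removal and 0.21 in granule-low cells. The lysosome median of 1.19 was 0.29 as a mean over cells, 0.61 thinned, 0.17 without the deepest 10% of members, 0.14 without mixed barcodes, -0.10 after doublet removal and -0.029 in granule-low cells. The median of TFEB and TFE3 targets, 1.12, was 0.15 in granule-low cells, 0.13 as a mean over cells, -0.061 thinned and -0.10 after doublet removal. The neutrophil share was 42.6% and 41.7% of neutrophils plus macrophages, 0.425% in WT after doublet removal and 1.71% in KO without the Retnlg condition.

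Removal by doublet score gave Camp 2.57, Ngp 1.85, Ltf 2.23, Lcn2 1.20, Chil3 3.00, Cebpe 1.07, Cybb 1.92, Olfm4 0.98, Lyz2 0.41, S100a8 0.16, S100a9 0.18, Zmpste24 0.061, Me2 0.062, Hipk2 0.013, H4c4 0.51, Tubb5 0.11, Il1b -0.83, Cxcl2 -0.37, Nlrp3 -0.58, Ptgs2 -0.026, Ccl3 -0.089, Retnlg -0.034, Spp1 -0.59, Fxyd2 -0.27, Tmem176b -0.23, and medians of -0.0936 for cytokines, -0.16 for mature-neutrophil genes and -0.16 for receptors. Granule-low cells gave Camp 3.57, Ltf 1.62, Lcn2 0.57, Olfm4 0.44, Il1b -0.23, Nlrp3 -0.033, Retnlg -0.069, Tubb5 0.58, Erbb4 0.40, H4c4 0.40 and Spp1 -0.29. The threshold of 25, which added 2 KO barcodes of 93440 and 155781 UMIs, gave Il1b -0.48, Cxcl2 -0.17, Nlrp3 -0.33, Mmp8 -0.20, Retnlg -0.58, Mecom 0.14, S100g 2.41, and medians of -0.14 for cytokines, -0.46 for mature-neutrophil genes and -0.34 for receptors. Without the Retnlg condition Il1b was -0.19 and Retnlg -0.45. Thinning gave Chd1 0.48, Retnlg -0.0174, Spp1 -0.46 and a V-ATPase median of -0.20. Leaving out the deepest 10% of members gave Retnlg -0.038, Spp1 -0.81, Tmem176b -0.24 and Tubb5 0.31, and leaving out mixed barcodes Spp1 -0.11, Tmem176b -0.23 and Tubb5 0.19. As a mean over cells the respiratory chain median was -0.03. TMM and median-of-ratios scaling moved all log2 ratios by -0.076 and -0.071.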
